A study of Mus musculus with 3 samples.

Results

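The cells described here were sorted from mouse tumours together with dendritic cells, and they carry transcripts of *Ear2*, *Fcrls* and *Lpl* in the same cell. They are labelled as monocyte-derived cells marked by *Retnla* and *Ear2*. The rule that selected them on the measured counts took barcodes outside the deposited list of type 1 conventional dendritic cells (cDC1s), with 1000 or more genes detected and less than 10% of their unique molecular identifiers (UMIs, 1 per captured transcript) on mitochondrial genes. It asked for 1 or more UMIs each of *Ear2*, *Fcrls*, *Lpl* and *Itgam*, and for 0 UMIs of *Xcr1*, *Ncr1*, *Cd3e* and *Mki67*. It found 596 cells of 30209 barcodes in all, and of 20378 that lay outside the cDC1 list and passed the same filters on depth.

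The 3 libraries held cells of subcutaneous MCA205 LA OVA tumours, a fibrosarcoma line carrying ovalbumin, harvested on day 5 from mice of 6 to 20 weeks on the C57BL/6J background. Each library was a single pool of mice of 1 genotype: 37 WT mice, 31 sGSN-/- mice, which lack secreted gelsolin, a plasma protein that binds filamentous actin, and 27 sGSN-/-Clec9a-/- mice, which also lack DNGR-1, the cDC1 receptor for that actin. Cells were sorted as live CD45+ CD11c+ MHCII+ CD88- cells without lineage antigens (among them Ly6G, NK1.1, CD3e and Siglec-F), as pre-cDCs, cDC1s and cDC2s, and were mixed in set proportions. A share of cells in a library is therefore not a share in the tumour, and with 1 library per genotype no test between genotypes was possible. Libraries held 8173 to 12763 barcodes with a median of 10649 to 13210 UMIs, and *Clec9a* was at 168 CPM (counts per 1000000 UMIs) in the deposited cDC1s of the WT library, 168 CPM in those of the sGSN-/- library and 0.0931 CPM (2 UMIs) in those of the sGSN-/-Clec9a-/- library, as the labels have it. The whole-gene count of *Gsn* does not separate the secreted isoform, so it does not check the first deletion.

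Blood monocytes enter inflamed tissue and tumours, where they take on features of macrophages or of dendritic cells. *Retnla* encodes RELMα, a small secreted protein known as a product of macrophages exposed to interleukin-4 or interleukin-13, and *Ear2* encodes a secreted ribonuclease of the RNase A family that was first named for eosinophils. *Fcrls* encodes an Fc receptor-like scavenger protein known from microglia, *Lpl* encodes lipoprotein lipase, which frees fatty acids from circulating lipoproteins, and *Itgam* encodes the integrin CD11b.

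To show what lies in front of the genes the cells are called by, the 200 bases before the RefSeq start of *Retnla* and *Ear2* were searched with those of *Ccl17*, a chemokine gene whose level ran against *Retnla* within the cells (described further on). The sequences are from RefSeq, build GRCm38.p6, each 5′ to 3′ on the strand of the gene: chr16:48842409-48842550 on the plus strand for *Retnla*, chr14:44102454-44102653 on the plus strand for *Ear2* and chr8:94810253-94810452 on the plus strand for *Ccl17*. *Retnla* starts at 48842551 in the GENCODE M21 annotation, upstream of its RefSeq start, and its window is shown for the 142 bases before that position. Capitals mark matches on either strand to 3 motifs: TTCNNNNGAA, the palindrome of STAT6, the factor downstream of the interleukin-4 receptor; TTGCNNAA, of the C/EBP family of myeloid factors; and GAGGAA, of PU.1.
Retnla: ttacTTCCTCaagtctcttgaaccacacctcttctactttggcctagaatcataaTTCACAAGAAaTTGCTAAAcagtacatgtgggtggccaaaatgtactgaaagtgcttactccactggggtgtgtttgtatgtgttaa
Ear2: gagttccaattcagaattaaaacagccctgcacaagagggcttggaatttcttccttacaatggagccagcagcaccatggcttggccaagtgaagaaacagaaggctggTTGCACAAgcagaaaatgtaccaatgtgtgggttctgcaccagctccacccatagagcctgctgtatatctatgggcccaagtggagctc
Ccl17: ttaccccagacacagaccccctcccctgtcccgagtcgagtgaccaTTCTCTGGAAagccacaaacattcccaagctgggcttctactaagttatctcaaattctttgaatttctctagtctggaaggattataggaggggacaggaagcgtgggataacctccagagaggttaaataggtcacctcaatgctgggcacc

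The *Retnla* window held TTCACAAGAA, a STAT6 match 145 to 136 bases before the RefSeq start, then, after 1 base, TTGCTAAA, a C/EBP match 134 to 127 bases before it, and a PU.1 match on the minus strand 196 to 191 bases before it. The *Ear2* window held 1 C/EBP match, TTGCACAA, 90 to 83 bases before the start. The *Ccl17* window held 1 STAT6 match, TTCTCTGGAA, 154 to 145 bases before the start. No matches overlapped. All 3 genes were searched over 200 bases each, including the bases of *Retnla* not shown, which held no match. Of 32851 RefSeq windows of 200 bases, 4.53% held the STAT6 letters, 7.47% the C/EBP letters and 19% the PU.1 letters. Windows for *Fcrls*, *Lpl*, *Gfra2*, *Cebpe* and *Cd226* are not shown. *Gm49101* overlaps *Ear2* on the other strand, and read counts of *Ear2* could include reads of the near-identical relatives of *Ear2*. *Ear1*, *Ear6* and *Ear10* were each at 0.152 CPM or less in the cells. How reads were assigned among these genes was not tested.

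All values below are CPM of the UMIs summed over the cells of a library, with the SD over the 3 libraries, which differ in genotype. The levels of the genes in the rule and of *Retnla*, for which the cells were first singled out, describe the selection and carry no test. *Retnla* stood at 2477 CPM in the WT library, 2195 CPM in the sGSN-/- library and 2717 CPM in the sGSN-/-Clec9a-/- library, so no library was far from the others. *Ear2* stood at 755, 682 and 708 CPM in the same order, *Fcrls* at 556, 509 and 541 CPM, and *Lpl* at 848, 934 and 679 CPM. The 596 cells held 45.5% of all *Retnla* UMIs in the 3 libraries, 42.7% of *Lpl*, 33.2% of *Ear2* and 29.9% of *Fcrls*. Among genes that the rule did not use, they held 39.4% of the UMIs of *Lyz1*, a lysozyme, 30.2% of *Gfra2*, a receptor of the neurturin family of growth factors, and 13.8% of *Cd226*, the activating receptor DNAM-1. For scale, the 596 cells held 14374670 UMIs of all genes, while the WT, sGSN-/- and sGSN-/-Clec9a-/- libraries held 176578136, 109270958 and 113411930.

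**Figure D1:**
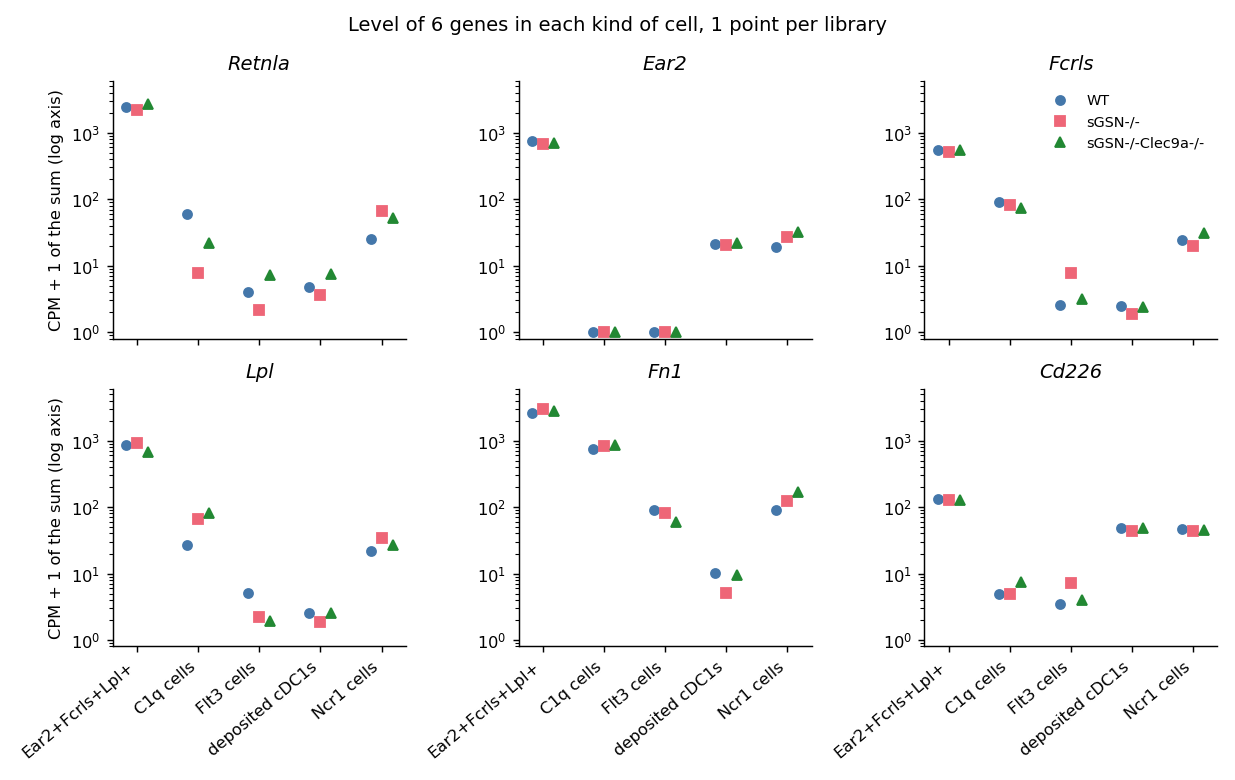
Level of 6 genes (CPM + 1 of the summed UMIs, log axis) in 5 kinds of cells, with 1 point for each library. *Ear2*, *Fcrls* and *Lpl* chose the Ear2+Fcrls+Lpl+ cells, and *Ear2* is 0 in the C1q and Flt3 cells by their own choice; *Fn1* and *Cd226* were used by no rule, and their 3 points in the Ear2+Fcrls+Lpl+ cells lie above all points of the other kinds.

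The markers of the label were checked against lists of cell type genes. Of 17 monocyte genes, 15 were at 10 CPM or more, and the list summed to 12856 to 13569 CPM per library, against 8775 to 9990 CPM in C1q cells, 5243 to 5685 CPM in the other cells with *Itgam*, 2221 to 2436 CPM in *Flt3* cells and 1603 to 2058 CPM in *Ncr1* cells. Gene by gene, in the comparisons described further on, 7 of 16 were higher and 9 lower against C1q cells and 9 of 15 higher and 5 lower against Flt3 cells (median log2 fold changes -0.89 and 1.01), so that against C1q cells the sum and the median differ in sign. *Lyz2* (7747 ± 59.4 CPM, SD, n = 3), *Fn1*, encoding fibronectin (2779 ± 186 CPM), and *Ccr2*, the chemokine receptor of classical monocytes (994 ± 61.0 CPM), made up most of it, whereas *Ly6c2*, which encodes the surface antigen of blood classical monocytes, was at 23.0 ± 10.8 CPM and *Chil3* at 1.16 ± 0.657 CPM. Transcripts cannot show where a cell came from, so the descent from monocytes was not tested, and the cells are called Ear2+Fcrls+Lpl+ cells below. *Retnla* itself had a UMI in 62.1% of them. The conventional dendritic cell genes *Flt3* and *Zbtb46* were low, at 13.1 ± 1.83 and 8.69 ± 0.596 CPM. The eosinophil list summed to 25.7 to 37.8 CPM, of which *Alox5*, a lipoxygenase that myeloid cells share, gave 26.6 ± 4.71 CPM, while *Ccr3*, *Il5ra*, *Prg2* and *Epx* had 0 UMIs. The 8 genes of neutrophils summed to 2.92 to 3.97 CPM, those of T cells to 2.53 to 5.81 CPM, those of NK cells to 10.1 to 15.5 CPM and those of tumour or stromal cells to 5.02 to 6.66 CPM; *Cd3e* of the T cell list and *Ncr1* of the NK cell list were 0 by the rule, which removed cells with these transcripts, so the sums of these lists are no check of the label. The macrophage list summed to 2840 to 4006 CPM, against 14266 to 14829 CPM in C1q cells and 400 to 526 CPM in Flt3 cells. The core list of conventional dendritic cells summed to 1070 to 1084 CPM, against 759 to 778 CPM in C1q cells and 1217 to 1357 CPM in Flt3 cells, and the cDC2 list to 1771 to 2009 CPM, against 1192 to 1458 and 2017 to 2111 CPM. The cDC1 list, with *Xcr1* at 0 by the rule, summed to 489 to 520 CPM, against 168 to 182 CPM in C1q cells, 227 to 269 CPM in Flt3 cells and 2535 to 2634 CPM in the deposited cDC1s. Most of this sum was *Naaa*, described further on, and 2 of the 8 genes were at 10 CPM or more. Gene by gene, 1 of 6 was higher and 2 lower against C1q cells, and 1 of 5 higher and 3 lower against Flt3 cells (medians -0.35 and -1.07). The patrolling monocyte list summed to 751 to 778 CPM, against 1275 to 1352 and 897 to 938 CPM in C1q and Flt3 cells, and the plasmacytoid dendritic cell list to 256 to 334 CPM, against 284 to 333 and 204 to 236 CPM. Genes that chose the C1q and Flt3 cells are part of some of these lists. The list of ribonuclease genes summed to 799 to 874 CPM, of which *Ear2* gave 682 to 755 CPM and *Rnase6* 59.8 to 77.6 CPM. *Cd226* was listed with large macrophages of the serous cavities, but the other 7 genes of that list were each below 4 CPM, among them *Gata6* at 0.264 ± 0.168 CPM, *Timd4* at 2.45 ± 0.720 CPM and *Icam2* at 3.92 ± 0.564 CPM.

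Of the cells outside the cDC1 list that passed the depth filters, 299 of 8937 (3.35%, exact 95% interval 2.98 to 3.74) were Ear2+Fcrls+Lpl+ cells in the WT library, 83 of 5332 (1.56%, 1.24 to 1.93) in the sGSN-/- library and 214 of 6109 (3.50%, 3.06 to 4.0) in the sGSN-/-Clec9a-/- library. These intervals cover counting error alone. The sGSN-/- library was lowest, and the intervals of the other two overlapped. Among cells with *Itgam*, the shares were 7.40% (6.61 to 8.25), 5.88% (4.71 to 7.24) and 10.3% (9.0 to 11.7). The sGSN-/- library also held the smallest share of cells with *Itgam*, 1412 of 5332, against 4040 of 8937 and 2084 of 6109. What the sort proportions contributed to these shares was not tested. The rule favours deep cells, as the Ear2+Fcrls+Lpl+ cells had a median of 22199, 24440 and 21497 UMIs, against 14017, 13845 and 11816 in the other cells with *Itgam*; with every cell thinned to 5000 UMIs the shares were 2.34%, 1.39% and 2.53%. Of the 596 cells, 3.36% were among the 6% of barcodes with the highest doublet scores, and the barcodes of 4 cells were also found in another library.

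The count of *Retnla* varied widely from cell to cell. The median cell had 4 UMIs, the upper quartile began at 69 UMIs, and the highest cell had 857 UMIs. The 10% of cells with the most *Retnla* held 56.7% of its UMIs, whereas the corresponding cells held 29.3% for *Ear2*, 41.3% for *Lpl* and 23.4% for *Fcrls*, of which the rule left no cell at 0, and 66.3% for *C1qa*, which the rule did not use. One or more *Retnla* UMIs were found in 58.9% of the cells of the WT library, 63.9% of those of the sGSN-/- library and 65.9% of those of the sGSN-/-Clec9a-/- library, and thinned to 5000 UMIs in 51.5%, 53.7% and 55.5%. In *Ncr1* cells, which should lack it, the thinned shares were 1.98%, 2.0% and 3.8% (unthinned 5.80%, 3.16% and 7.86%, at median depths of 11830, 9765 and 8813 UMIs). *Cd226* was spread more evenly, with a UMI in 80.2% of the cells and a median of 2 UMIs, and in 40.5% after thinning; NK cells are known to express it, so *Ncr1* cells (15.8% to 17.5%) give no background for this gene.

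**Figure D2:**
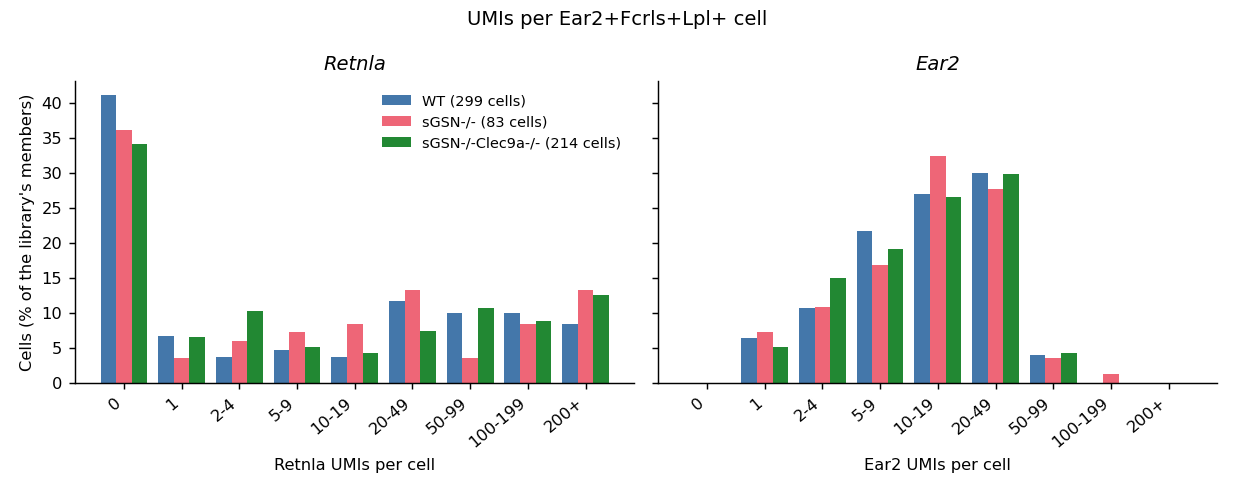
UMIs of *Retnla* (left) and of *Ear2* (right) per Ear2+Fcrls+Lpl+ cell, as the percentage of the cells of each library in each range of UMIs. *Retnla* was 0 in 34% to 41% of the cells of a library and 200 or more in a further group of each library, while *Ear2*, which the rule set at 1 or more, had a single broad peak.

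The cells just outside the rule show where it draws its lines. In 116 members, at least 1 of the 3 genes rested on a single UMI, 3 had exactly 1 UMI of each gene, and 480 had 2 or more of each. Outside, 231 cells failed the *Lpl* part alone, 145 the *Ear2* part alone and 58 the *Fcrls* part alone, and their *Retnla* averaged 104 ± 45.6, 393 ± 396 and 117 ± 158 CPM, against 2463 ± 262 CPM inside. The last 2 means outside rest on the WT library, with 845 CPM against 114 and 218 CPM in the sGSN-/- and sGSN-/-Clec9a-/- libraries for the cells that failed the *Ear2* part, and 300 CPM against 32.1 and 20.3 CPM for those that failed the *Fcrls* part. A further 83 cells failed only for *Xcr1*, 16 for *Ncr1*, 11 for *Itgam* and 2 for *Cd3e*, and none of the 5806 deposited cDC1s met the gene part of the rule. The largest group outside was 330 cells that failed only for a UMI of *Mki67*, the proliferation antigen Ki-67. In these, *Retnla* averaged 1702 ± 312 CPM, *Ear2* 590 ± 126 CPM, *Cd226* 118 ± 12.8 CPM and *Gfra2* 54.2 ± 5.40 CPM, while *Top2a*, a topoisomerase of dividing cells, averaged 184 ± 36.5 CPM against 8.98 ± 2.38 CPM inside. Together with them, the cells held 70.4% of all *Retnla* UMIs.

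With the *Mki67* part of the rule set aside, 330 of 926 Ear2+Fcrls+Lpl+ cells (35.6%) had a *Mki67* UMI. Thinned to 5000 UMIs, the WT library had a share of 15% (11.8 to 18.8), the sGSN-/- library one of 24.3% (17.7 to 32.1) and the sGSN-/-Clec9a-/- library one of 23.2% (18.8 to 28.0). The comparison cells, defined in the next paragraph and treated alike, had 13.1% over all libraries for C1q cells and 11.8% for Flt3 cells, against 19.6% for the Ear2+Fcrls+Lpl+ cells. The share in Ear2+Fcrls+Lpl+ cells was the highest of the 3 kinds in each library, although its interval overlapped those of the C1q and Flt3 cells in the WT library (10.2 to 15.5 and 9.14 to 14.0) and in the sGSN-/- library (12.5 to 22.8 and 10.7 to 20.7) and lay apart only in the sGSN-/-Clec9a-/- library (7.62 to 15.1 and 7.03 to 14.2).

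**Figure D3:**
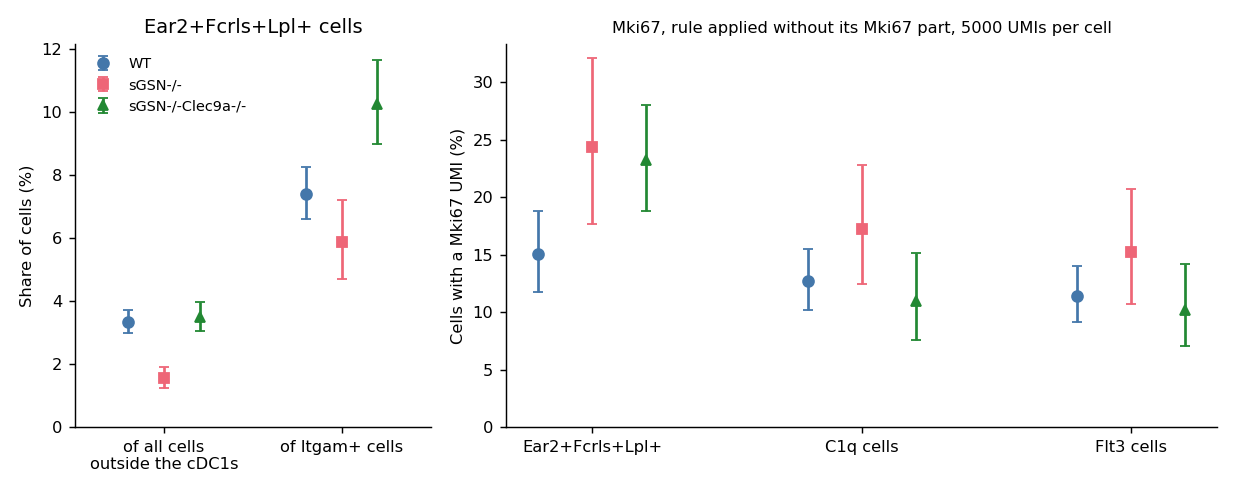
Left, Ear2+Fcrls+Lpl+ cells as a percentage of all cells outside the cDC1 list and of cells with *Itgam*, in each library; right, the percentage of cells with a *Mki67* UMI after thinning to 5000 UMIs, for 3 kinds of cells with the *Mki67* part of their rules set aside. Bars are exact 95% binomial intervals; the Ear2+Fcrls+Lpl+ cells run from 15% to 24.3% on the right.

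To describe what else the cells express, their UMIs were summed per library and compared with 2 other kinds of myeloid cells from the same libraries, all with *Itgam*, without *Ear2* and outside the cDC1 list: 917 C1q cells (*C1qa*, *C1qb* and *Apoe* present) and 1023 Flt3 cells (*Flt3* present, and *C1qa*, *Cd7* and *Siglech* absent). By the genes that chose them, the C1q cells resemble complement-producing macrophages and the Flt3 cells resemble dendritic cells other than cDC1s. The mixed pre-cDCs were sorted by CD135, the product of *Flt3*, and the study used *Cd7* as a gene of these cells. A pre-cDC can lack a *Cd7* UMI, so the Flt3 cells may include pre-cDCs beside cDC2s. Their share was not tested. A call is an adjusted p under 0.05 by the quasi-likelihood test of edgeR, adjusted by Benjamini-Hochberg over all genes tested, with 3 sums against 3, and it measures how alike the libraries are. Against C1q cells 4038 of 9937 genes were called (40.6%), 2141 higher (21.5%) and 1897 lower (19.1%), and the libraries of the 2 kinds did not overlap for 49.0%. Against Flt3 cells 4964 of 9913 were called (50.1%; 25.2% higher, 24.9% lower; no overlap for 56.8%). Without the WT library 2616 genes were called against C1q cells. Scaled to library size without the TMM factors of edgeR, the median gene moved from 0.0058 to 0.082 against C1q cells and from 0.0044 to 0.136 against Flt3 cells on the log2 scale, with 2514 genes higher and 1516 lower, and 3222 higher and 1851 lower. Calls were common, and a call alone sets no gene apart. The count of called genes in each gene list is to be read beside these shares, 40.6% of all genes called against C1q cells and 50.1% against Flt3 cells. *Gm42418*, which overlaps ribosomal RNA and takes up its reads, was higher in the Ear2+Fcrls+Lpl+ cells of every library, at 20087, 23292 and 41316 CPM, against 9184, 11467 and 21508 CPM in C1q cells (0.93 ± 0.27) and 8587, 10225 and 16988 CPM in Flt3 cells (1.12 ± 0.23; log2 fold changes ± SE, both called), and its part in the other differences was not tested. The 2 comparisons share the Ear2+Fcrls+Lpl+ cells, genes that accompany a chosen gene of a comparison follow partly from that choice, values given as pairs stand in the order C1q cells and Flt3 cells, and the cells were deeper than their comparisons; restricted to cells of 10000 to 30000 UMIs, 3880 and 4612 genes were called.

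Among called genes at 50 CPM or more in the higher group, those that stood furthest above C1q cells, beside *Retnla*, encode a lysozyme, surface receptors and a transcription factor. *Lyz1* was at 210 CPM in the WT library, 452 CPM in the sGSN-/- library and 362 CPM in the sGSN-/-Clec9a-/- library, against 2.27 to 3.65 CPM in C1q cells and 0.787 to 3.03 CPM in Flt3 cells. No library of either kind came near. Its log2 fold changes were 6.82 ± 0.32 (SE) and 7.82 ± 0.35 (edgeR adjusted p = 9.5e-11 and 3.3e-13). A *Lyz1* UMI was found in 20.7%, 34.9% and 29.0% of the Ear2+Fcrls+Lpl+ cells of the 3 libraries, so a minority of the cells carried its level. *Lyz1* lies beside the near-identical *Lyz2* on chromosome 10, so reads between them are uncertain; *Lyz2* was 7747 ± 59.4 CPM here and 4554 ± 550 CPM in C1q cells. *Cd226* was at 131, 128 and 126 CPM in the 3 libraries, against 3.94 to 6.46 CPM in C1q cells and 2.50 to 6.30 CPM in Flt3 cells, and its log2 fold changes were 4.72 ± 0.14 and 5.12 ± 0.17. *Gfra2* was at 59.8, 52.0 and 56.0 CPM, with log2 fold changes of 5.89 ± 0.20 against C1q cells and 5.79 ± 0.20 against Flt3 cells. *Cebpe*, a C/EBP factor known from granulocyte maturation, was at 44.4, 57.9 and 57.1 CPM, 5.10 ± 0.23 higher on the log2 scale than in C1q cells, and Flt3 cells held 1 UMI, a ratio of 726 (130 to 28695). *Il1rl1*, the receptor of interleukin-33, was at 65.4, 58.4 and 53.4 CPM and higher by log2 4.12 ± 0.18 and 3.45 ± 0.18. All of these passed the test in the comparisons named and none of their libraries overlapped.

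Further surface proteins and a growth factor receptor, *Ms4a8a* by rank and *Fgfr1*, *Cd2* and *Ceacam1* chosen after their values were seen, were also higher in both comparisons. *Ms4a8a*, of the membrane-spanning 4A family, averaged 60.9 ± 3.54 CPM, with log2 fold changes of 3.32 ± 0.17 against C1q cells and 6.42 ± 0.24 against Flt3 cells. *Fgfr1*, a fibroblast growth factor receptor, averaged 123 ± 6.35 CPM and rose by 4.04 ± 0.12 and 2.95 ± 0.11. *Cd2*, an adhesion receptor better known from lymphocytes, averaged 63.9 ± 0.636 CPM against 6.0 and 1.21 CPM. *Ceacam1*, an inhibitory adhesion receptor, averaged 25.5 ± 1.86 CPM and rose by 2.02 ± 0.16 and 1.69 ± 0.18.

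**Figure D4:**
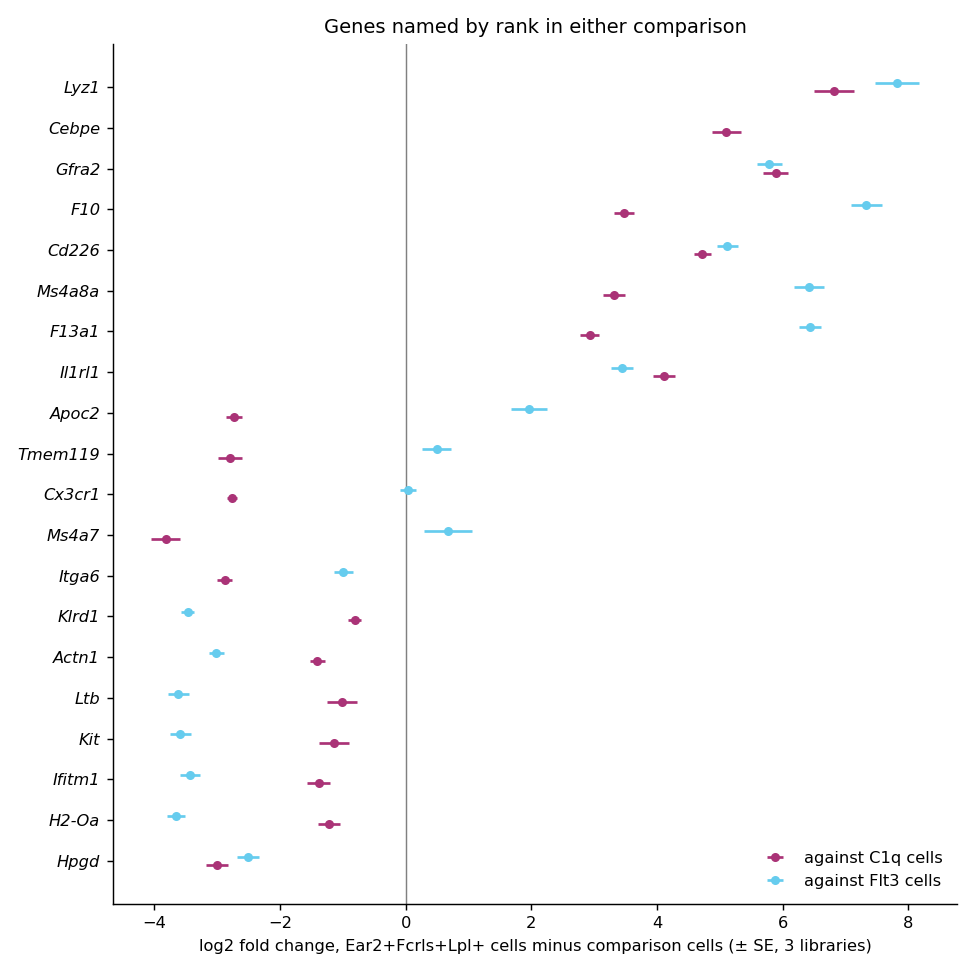
Log2 fold change of the genes ranked first in either comparison at 50 CPM or more, *Retnla* left out, with its SE over 3 libraries; values right of 0 are higher in Ear2+Fcrls+Lpl+ cells. Fits with 3 or fewer UMIs in the comparison cells are not drawn. *Lyz1*, *Gfra2*, *Cebpe*, *Cd226*, *Ms4a8a* and *Il1rl1* lie right of 3 wherever drawn, and the genes below *Il1rl1* lie left of 0 in 1 comparison or more.

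*F10*, *F7* and *F13a1*, which encode coagulation factors, were listed with adhesion, complement or monocyte genes, and coagulation genes were not counted as a list. *F10*, coagulation factor X, was at 99.2, 117 and 133 CPM, against 9.32 ± 2.14 CPM in C1q cells and 0.816 ± 0.419 CPM in Flt3 cells (log2 fold changes 3.47 ± 0.16 and 7.33 ± 0.25). *F7*, factor VII, averaged 47.6 ± 10.3 CPM against 2.07 ± 2.56 CPM in C1q cells (3.86 ± 0.33), and Flt3 cells held 1 UMI, a ratio of 650 (116 to 25724). *F13a1*, the A chain of factor XIII, which crosslinks fibrin, was at 152, 182 and 155 CPM and rose by 2.93 ± 0.16 and 6.44 ± 0.17. *Fn1*, whose product joins the same matrix, rose by 1.72 ± 0.08 and 5.05 ± 0.12. *Thbs1*, thrombospondin, went the other way against C1q cells (-1.21 ± 0.13) and was higher than in Flt3 cells (1.40 ± 0.14). *F13a1* overlaps *Gm30489* and *Gm49144* on the other strand.

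Of the 20 chemokine genes listed, 18 were tested in each comparison, and 6 rose and 7 fell against C1q cells and 11 rose and 3 fell against Flt3 cells. The median log2 fold changes were 0.04 and 2.33, beside the medians near 0 over all genes tested. *Ccl6*, a constitutive chemokine of mouse macrophages, was at 1937, 2027 and 1859 CPM, against 192 ± 14.2 and 68.3 ± 7.88 CPM (3.27 ± 0.09 and 4.69 ± 0.10). The related *Ccl9* averaged 916 ± 30.5 CPM and rose by 2.10 ± 0.12 and 3.95 ± 0.11. *Ccl24*, an eosinophil attractant, averaged 22.9 ± 7.69 CPM, while Flt3 cells held 0 UMIs, which makes it at least 119-fold higher, taking 3 UMIs over the group as the floor. Among those that fell in both comparisons, *Cxcl16*, a membrane-bound attractant of CXCR6+ T cells, averaged 108 ± 13.8 CPM (-2.17 ± 0.10 and -1.78 ± 0.09), and *Ccl4* averaged 254 ± 43.9 CPM against 937 ± 147 CPM in C1q cells (-1.96 ± 0.13). *Cxcl1*, a neutrophil attractant, was at 136, 134 and 61.2 CPM, so that the sGSN-/-Clec9a-/- library stood apart; it rose by 3.8 ± 0.30 against Flt3 cells and by 1.20 ± 0.32 against C1q cells, but without the WT library the latter was 0.48 and no longer passed.

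Of the cytokines and growth factors, 6 of 15 rose and 6 fell against C1q cells and 8 of 14 rose and 1 fell against Flt3 cells, with medians of 0.10 and 0.36. *Il6* was at 52.6, 39.7 and 48.9 CPM, against 2.37 ± 0.357 and 1.13 ± 0.206 CPM (4.22 ± 0.18 and 5.18 ± 0.21), and *Areg*, the epidermal growth factor family member amphiregulin, averaged 274 ± 31.3 CPM (0.94 ± 0.09 and 2.33 ± 0.16). *Il1b* was still abundant, at 1809 ± 330 CPM, but lower than in both of the other kinds (-1.24 ± 0.11 and -1.35 ± 0.10). *Tnf* averaged 61.8 ± 18.9 CPM and passed in neither comparison.

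Receptors for cytokines and their signalling genes were mixed, with 12 of 27 higher and 9 lower against C1q cells and 10 and 11 of 26 against Flt3 cells (medians 0.11 and -0.06). *Csf2ra*, a chain of the GM-CSF receptor, averaged 380 ± 10.6 CPM and was higher by 0.39 ± 0.07 and 0.68 ± 0.08, whereas *Csf1r*, the M-CSF receptor, averaged 235 ± 7.37 CPM, below C1q cells (-0.86 ± 0.07) and above Flt3 cells (0.45 ± 0.08). *Socs2*, a feedback inhibitor of such receptors, averaged 28.7 ± 3.58 CPM, higher by 1.13 ± 0.15 than in C1q cells and by 1.65 ± 0.17 than in Flt3 cells. The interferon-gamma receptor gene *Ifngr1* (231 ± 19.1 CPM; -0.85 ± 0.08 and -1.51 ± 0.09), the TGF-beta receptor gene *Tgfbr1* (24.0 ± 1.96 CPM; -2.16 ± 0.10 and -0.90 ± 0.12) and the decoy receptor gene *Il1r2* (152 ± 46.8 CPM; -1.25 ± 0.18 and -2.64 ± 0.16) were lower than in both kinds. Of chemokine receptors, 2 of 10 rose and 6 fell against C1q cells and 2 of 9 rose and 5 fell against Flt3 cells. *Ccr2* was 1.01 ± 0.08 higher than in Flt3 cells; the 0.25 ± 0.07 against C1q cells fell to 0.21 without the WT library and no longer passed. *Cx3cr1*, the fractalkine receptor, was at 70.2, 77.6 and 73.1 CPM, against 465, 488 and 462 CPM in C1q cells (-2.76 ± 0.08). *Gpr183*, a receptor for oxysterols that positions dendritic cells, averaged 53.3 ± 3.70 CPM and fell by 2.13 ± 0.09 and 2.30 ± 0.09.

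Genes of alternative activation, the programme that interleukin-4 and interleukin-13 induce, moved in both directions. Of the genes tested, *Retnla* left out, 9 of 17 were higher and 4 lower against C1q cells and 8 and 7 of 16 against Flt3 cells, with medians of 0.55 and 0.28. *Mrc1*, the mannose receptor, was at 547, 570 and 485 CPM, against 143 ± 11.2 and 32.2 ± 3.79 CPM (1.82 ± 0.08 and 3.90 ± 0.10), and *Egr2*, a transcription factor of that programme, averaged 182 ± 20.9 CPM (1.04 ± 0.10 and 1.68 ± 0.13). *Cd163*, the haemoglobin scavenger receptor, was low at 15.2 ± 2.28 CPM but higher than in both kinds (2.79 ± 0.24 and 2.95 ± 0.26). *Chil3* and *Chil4*, other well-known genes of the programme, were at 1.16 ± 0.657 CPM and 0. *Il4ra*, the interleukin-4 receptor, averaged 76.5 ± 12.2 CPM, against 67.5 and 85.6 CPM, and passed, as lower, against Flt3 cells alone (edgeR adjusted p = 0.040), a call that was lost in 6 of 13 alternatives (adjusted p from 0.0034 to 0.38 over all of them). *Mgl2*, a galactose-binding lectin, averaged 645 ± 94.2 CPM and was 1.08 ± 0.09 higher than in C1q cells; its 0.29 ± 0.09 against Flt3 cells did not pass without the WT library (0.20).

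Among the other lectins and pattern receptors, 10 of 21 were higher and 7 lower against C1q cells and 13 and 4 of 20 against Flt3 cells (medians 0.13 and 1.24). *Clec4b1*, of the DCAR branch of the dectin-2 cluster, was at 374, 314 and 299 CPM, against 44.8 ± 14.6 and 23.9 ± 9.21 CPM (2.89 ± 0.16 and 3.65 ± 0.15). *Clec4a2*, an inhibitory receptor of the same cluster, averaged 341 ± 15.2 CPM (0.83 ± 0.07 and 2.22 ± 0.09). *Clec4n*, dectin-2 itself, was lower, at 111 ± 20.1 CPM (-1.78 ± 0.11 and -0.87 ± 0.11). The members of this cluster are alike in sequence, so reads may be split between them. *Cd209a*, a lectin of monocyte-derived dendritic cells and cDC2s, averaged 183 ± 17.2 CPM, above C1q cells (1.57 ± 0.10) and below Flt3 cells (-1.58 ± 0.09). Of the Fc receptor genes other than *Fcrls*, 1 of 8 was higher and 5 lower against C1q cells and 2 and 3 of 8 against Flt3 cells; *Fcgr1*, the high-affinity receptor CD64 of macrophages, averaged 50.5 ± 3.75 CPM (-1.92 ± 0.09 and -1.01 ± 0.10).

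Beside *Lpl*, genes of lipid uptake and handling moved in both directions. Of those tested, 9 of 22 were higher and 7 lower against C1q cells and 16 and 3 of 23 against Flt3 cells (medians 0.14 and 1.40). *Cd36*, the fatty acid translocase, was at 44.2, 54.3 and 32.2 CPM, against 8.86 ± 6.74 CPM in C1q cells (2.46 ± 0.35) and 1.39 ± 0.273 CPM in Flt3 cells (4.89 ± 0.26). *Pparg*, the nuclear receptor that drives *Cd36* and *Lpl*, was low at 12 ± 4.08 CPM, 1.20 ± 0.24 above C1q cells (0.86 and not passing without the WT library) and 3.55 ± 0.35 above Flt3 cells. The cholesterol exporter gene *Abcg1* (97.7 ± 4.70 CPM; 1.07 ± 0.09 and 1.5 ± 0.10) and the lysosomal lipase gene *Lipa* (114 ± 4.69 CPM; 0.61 ± 0.09 and 1.40 ± 0.10) were higher than in both kinds. The apolipoprotein gene *Apoc2* averaged 11.2 ± 1.23 CPM against 71.3 ± 8.43 CPM in C1q cells (-2.74 ± 0.13), and the scavenger receptor gene *Msr1* averaged 14.6 ± 4.86 CPM (-2.15 ± 0.17 against C1q cells).

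Macrophage genes were lower than in C1q cells, where 9 of 13 fell and 2 rose, and higher than in Flt3 cells, where 12 of 14 rose and 0 fell (medians -0.81 and 3.08). Of all genes tested, 19.1% fell against C1q cells and 25.2% rose against Flt3 cells. The C1q cells were chosen with *C1qa*, *C1qb* and *Apoe* and the Flt3 cells without *C1qa*, so both directions follow partly from that choice. *Ms4a7* was at 26.9, 10.04 and 11.3 CPM against 190 to 298 CPM in C1q cells (-3.82 ± 0.23), and *Trem2*, a lipid-sensing receptor of macrophages, at 52.2, 83.5 and 67.1 CPM against 326 to 338 CPM (-2.42 ± 0.13). *Hpgd*, which inactivates prostaglandins (-3.01 ± 0.17), *Itga6*, a laminin-binding integrin (-2.88 ± 0.12), and *Tmem119* (-2.79 ± 0.19) completed the 6 lowest against C1q cells, under the same 50 CPM limit, with *Cx3cr1*, *Apoc2* and *Ms4a7*. *Spp1*, osteopontin, averaged 104 ± 16.2 CPM (-2.66 ± 0.13 against C1q cells).

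Genes of antigen presentation were mostly lower than in the other kinds. Of the genes of MHC class II presentation, 3 of 14 rose and 9 fell against C1q cells and 0 of 14 rose and 11 fell against Flt3 cells (medians -0.41 and -0.94). Of all genes tested, 19.1% fell against C1q cells and 24.9% against Flt3 cells. *H2-Aa* was still abundant, at 5570, 6020 and 5814 CPM, against 7222 to 7793 CPM in C1q cells (-0.45 ± 0.07) and 9887 to 10309 CPM in Flt3 cells (-0.93 ± 0.08), and *H2-Ab1* and *H2-Eb1* followed it (-0.42 ± 0.07 and -0.64 ± 0.07 against C1q cells, -0.95 ± 0.07 and -1.08 ± 0.08 against Flt3 cells). All of the cells had been sorted as positive for MHCII protein. *H2-Oa*, whose product restrains peptide loading, was at 13, 24.6 and 22.4 CPM against 203 to 222 CPM in Flt3 cells (-3.66 ± 0.15), and its partner *H2-Ob* averaged 14.5 ± 2.10 CPM (-2.86 ± 0.11). Of the costimulatory and inhibitory ligands, 3 of 13 rose and 5 fell against C1q cells and 3 of 14 rose and 10 fell against Flt3 cells; *Cd86* averaged 121 ± 7.75 CPM (-0.72 ± 0.08 against C1q cells and -1.19 ± 0.09 against Flt3 cells), *Havcr2*, encoding TIM-3, 21.8 ± 2.98 CPM (-2.06 ± 0.11 and -1.85 ± 0.12), and *Cd24a* 298 ± 40.2 CPM, higher by 2.49 ± 0.11 and 1.14 ± 0.09.

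Of the transcription factors tested, 19 of 27 were called against C1q cells and 26 of 27 against Flt3 cells, beside 40.6% and 50.1% of all genes: 13 of 27 were higher and 6 lower against C1q cells and 17 and 9 of 27 against Flt3 cells (medians 0.19 and 0.72). *Batf3*, best known for its role in cDC1 development, was at 183, 157 and 162 CPM, against 34.2 ± 5.03 and 35.5 ± 5.47 CPM (2.26 ± 0.11 and 2.14 ± 0.11). *Irf4*, a factor of cDC2s and of monocyte-derived dendritic cells, averaged 89.4 ± 2.74 CPM (1.84 ± 0.11 and 1.12 ± 0.10), whereas *Irf8*, its relative of cDC1s and monocytes, averaged 57.3 ± 4.20 CPM and was lower (-1.35 ± 0.09 and -1.07 ± 0.15). *Klf2* averaged 316 ± 35.3 CPM (1.26 ± 0.13 and 2.13 ± 0.09). *Naaa*, a lipid amidase listed with cDC1 genes, averaged 446 ± 16.4 CPM, against 115 ± 7.63 and 117 ± 17.8 CPM (1.89 ± 0.08 and 1.80 ± 0.10), although *Xcr1* was excluded by the rule and *Clec9a* was at 2.17 ± 1.25 CPM. Of the core genes of conventional dendritic cells, 5 of 14 were higher and 4 lower against C1q cells and 3 and 10 of 13 against Flt3 cells. The 3 that rose against Flt3 cells were *Batf3*, *Irf4* and *Id2*. At 50 CPM or more in the higher group, the lowest genes against Flt3 cells were, beside *H2-Oa*, *Ltb*, lymphotoxin beta (7.70 ± 2.84 CPM against 78.0 ± 6.69 CPM; -3.62 ± 0.17), *Kit* (-3.59 ± 0.16), *Klrd1* (75.9 ± 10.4 against 762 ± 17.7 CPM; -3.47 ± 0.11), *Ifitm1* (402 ± 128 against 3949 ± 182 CPM; -3.43 ± 0.16) and *Actn1* (-3.01 ± 0.12).

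Adhesion, matrix and complement genes were tested for 24 and 23 of the 26 listed, with 9 higher and 10 lower, and 15 and 7 (medians -0.06 and 1.40). *Icam1*, the ligand of LFA-1, was at 179, 182 and 136 CPM, against 44.2 ± 3.69 and 35.2 ± 6.08 CPM (1.84 ± 0.11 and 2.14 ± 0.13), and *Itga4*, a chain of the VCAM-1 receptor, averaged 151 ± 8.32 CPM (0.76 ± 0.09 and 1.09 ± 0.08). The metalloproteinase genes went apart, with *Mmp19* at 134 ± 21.4 CPM (2.99 ± 0.20 and 4.57 ± 0.19) and *Mmp14* at 22.1 ± 1.98 CPM (-2.16 ± 0.12 and -1.54 ± 0.12). *C5ar1*, encoding CD88, against which the cells were sorted, averaged 25.1 ± 4.86 CPM, below C1q cells (-1.96 ± 0.13). Of 14 genes of the response to tissue dissociation, 7 were higher and 0 lower against C1q cells and 5 and 2 against Flt3 cells, and 7 were not called in each, beside the 40.6% and 50.1% of all genes called. *Dusp1* averaged 1318 ± 92.2 CPM (1.15 ± 0.13 and 1.46 ± 0.09), *Egr1* 870 ± 51.4 CPM (1.0 ± 0.13 and 0.58 ± 0.10) and *Zfp36* 960 ± 20.9 CPM (0.77 ± 0.10 and 0.47 ± 0.09), and the list summed to 10738 to 12811 CPM here, against 7334 to 10139 CPM in C1q cells and 8988 to 10630 CPM in Flt3 cells; its part in the other differences was not tested. Cell cycle genes other than *Mki67*, which was 0 by the rule, divided as 0 of 11 higher and 3 lower, and 5 of 11 and 2. Of 13 interferon-stimulated genes, 7 rose and 1 fell against C1q cells and 4 rose and 1 fell against Flt3 cells.

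Within the Ear2+Fcrls+Lpl+ cells, those with a *Retnla* UMI differed from those without, a split made after the values were seen and given without a test. *Lyz1* was at 318, 652 and 510 CPM in the cells with *Retnla* of the WT, sGSN-/- and sGSN-/-Clec9a-/- libraries, against 22.4, 106 and 33.9 CPM in those without. *F13a1* averaged 216 ± 22.4 CPM against 64.5 ± 12.9 CPM, *Il6* 60.4 ± 4.02 CPM against 22.0 ± 10.8 CPM, *Lpl* 997 ± 198 CPM against 497 ± 40.3 CPM, and *Cebpe* 61.2 ± 7.61 CPM against 37.6 ± 8.89 CPM. In the other direction, *Ccl17*, a ligand of CCR4 on T cells, was at 62.9, 71.2 and 11.6 CPM against 219, 119 and 342 CPM. *Mmp12*, macrophage elastase, averaged 82.1 ± 13.5 CPM against 199 ± 31.7 CPM, *Cd209a* 144 ± 24.9 CPM against 255 ± 9.58 CPM and *Mgl2* 510 ± 48.1 CPM against 895 ± 168 CPM. For each of these genes the 3 libraries of the 2 sides did not overlap, as for 411 of 2798 genes ranked (14.7%), of which 10 differed more than 2-fold. Cells with *Retnla* were deeper in the WT library (median 23459 against 19478 UMIs) and in the sGSN-/-Clec9a-/- library (23703 against 20179), and shallower in the sGSN-/- library (20942 against 24643). With each cell thinned to 5000 UMIs, *F13a1* had a UMI in 49.4% of the cells with *Retnla* and in 20.7% of those without, *Lyz1* in 27.4% and 9.06%, *Il6* in 21% and 9.06%, *Cd226* in 47.8% and 32.2%, *Mgl2* in 72.6% and 85.1%, *Cd209a* in 29.0% and 40.6%, and *Ccl17* in 4.78% and 10.1%. *Mrc1* was at 555, 583 and 505 CPM in the cells with *Retnla* and 533, 546 and 440 CPM in those without.

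**Figure D5:**
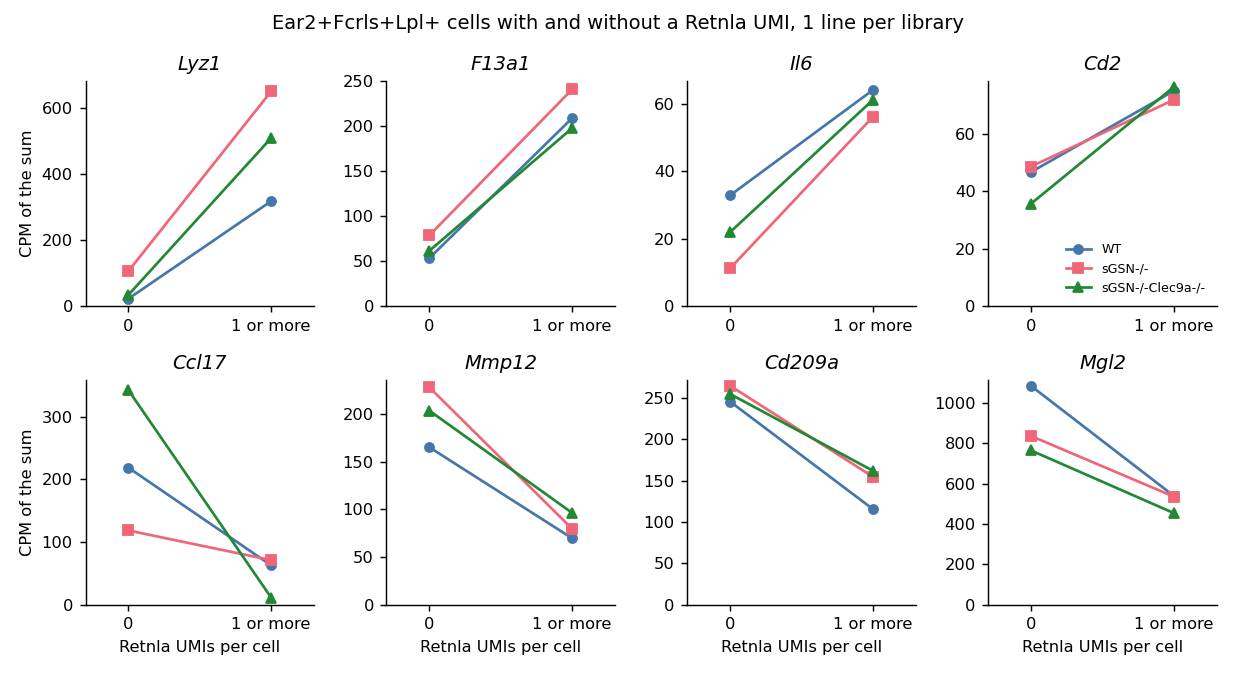
Level (CPM of the summed UMIs, linear axes from 0) of 8 genes in Ear2+Fcrls+Lpl+ cells with 0 and with 1 or more *Retnla* UMIs, with 1 line for each library. *Lyz1*, *F13a1*, *Il6* and *Cd2* were higher with *Retnla* in each of the 3 libraries, and *Ccl17*, *Mmp12*, *Cd209a* and *Mgl2* were lower.

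The complement gene *C1qa*, which the rule did not use, was also found in some of the cells and not in others. It had a UMI in 46.8% of them and in 35.6% after thinning to 5000 UMIs, against 6.43% to 9.22% of *Ncr1* cells, and thinned it was found in 32.7% of the cells with *Retnla* and 40.3% of those without in the WT library, 31.8% and 39.5% in the sGSN-/- library, and 36.8% and 31.9% in the sGSN-/-Clec9a-/- library, so the direction was not the same in each. Cells with *C1qa* had more *C1qc* (613 ± 193 CPM against 12.2 ± 2.60 CPM), *Apoe* (666 ± 235 CPM against 64.4 ± 37.7 CPM), *Trem2* (114 ± 35.7 CPM against 18.8 ± 7.45 CPM) and *Cx3cr1* (121 ± 11.5 CPM against 24.4 ± 3.54 CPM). They had less *Ear2* (531 ± 91.4 CPM against 908 ± 41.1 CPM), *Cebpe* (36.5 ± 9.56 CPM against 70.9 ± 15.6 CPM), *Il6* (31.8 ± 14.0 CPM against 63.4 ± 6.94 CPM) and *Ccl17* (46.0 ± 36.2 CPM against 171 ± 30.4 CPM). The libraries did not overlap for these genes, as for 665 of 2829 genes ranked (23.5%), 36 of them more than 2-fold apart. This split too was made after the values were seen, and cells with *C1qa* were deeper in each library (23441 against 20756, 25400 against 20255 and 22742 against 20606 UMIs). With each cell thinned to 5000 UMIs, *Ccl17* had a UMI in 5.56% of the cells with *C1qa* and 9.52% of those without in the WT library, 3.45% and 11.3% in the sGSN-/- library, and 5.48% and 5.80% in the sGSN-/-Clec9a-/- library, where the shares were close.

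The levels in the 3 libraries can be set side by side, without a test. Of 263 listed genes at 10 CPM or more in any library, 241 lay within 2-fold between the sGSN-/- and WT libraries and 248 between the sGSN-/-Clec9a-/- and sGSN-/- libraries, with ratios from 0 to 17.7 and from 0.0518 to 23.1. *Klk1*, at 0 CPM in the sGSN-/- library and 11.5 CPM in the sGSN-/-Clec9a-/- library, has no ratio between these. Each ratio below compares 2 libraries, with an interval for counting error alone, so it says nothing of the genotypes. Of 2843 genes ranked, those highest in the sGSN-/- library relative to WT included *Ccl5*, a chemokine for T cells (116 against 29.6 CPM, ratio 3.91, 3.24 to 4.72), the long non-coding gene *AW112010* (2.40), *Yae1d1* (2.36) and *Vegfa* (2.23). *Ccl5* did not move so in the other cells of the same libraries, with 89.6 against 83.1 CPM in C1q cells and 44.5 against 53.7 CPM in Flt3 cells. The lowest included the heat shock genes *Hspa1b* (211 against 592 CPM, 0.356) and *Hspa1a* (525 against 1027 CPM, 0.511), *Polr2l* (0.479) and *Cks2* (0.542). *Hspa1a* and *Hspa1b* are near-identical copies between which reads can be split.

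In the sGSN-/-Clec9a-/- library relative to sGSN-/-, the highest of 2798 genes were *Ly6a* (71.8 against 31.5 CPM, ratio 2.28, 1.76 to 2.99), *Plac8* (247 against 136 CPM, 1.82), *Gm42418* (1.77), *Sap30* (1.66) and *Nrp2* (1.65). *Gm42418* was also higher in that library in C1q and Flt3 cells, as was *Plac8* (118 against 69.0 and 331 against 227 CPM). The lowest were *Yae1d1* (9.36 against 50.2 CPM, 0.187), *Cd63* (29.4 against 75.7 CPM, 0.389), *Ccl5* (45.2 against 116 CPM, 0.390), *Cxcl1* (61.2 against 134 CPM, 0.457) and *AW112010* (0.492). *Yae1d1* was also lower in C1q cells (13.8 against 24.9 CPM) and Flt3 cells (15.4 against 24.0 CPM). *Ccl5* and *AW112010* were thus highest in the sGSN-/- library, where the cells were fewest, at 83, and 18 of these had a *Ccl5* UMI. In that library *Ccl5* was at 302 CPM in the cells without *Retnla* and 8.63 CPM in those with it, against 5.02 and 43.9 CPM in the WT library and 11.9 and 60.3 CPM in the sGSN-/-Clec9a-/- library. In the same cells without *Retnla*, 3 further genes, chosen after their values were seen, were higher than in the other libraries, *Ccr7* at 61.1 CPM (0.386 and 1.25 CPM in the WT and sGSN-/-Clec9a-/- libraries), *Il12b* at 39.9 CPM (0.773 and 0 CPM) and *Ccl22* at 23.7 CPM (5.02 and 10.03 CPM), whereas *Cd40* was at 12.5 CPM (11.6 and 16.3 CPM), *Cd80* at 39.9 CPM (59.1 and 40.1 CPM) and *Relb* at 37.4 CPM (31.7 and 29.5 CPM). Over all 83 cells, the *Ccr7* UMIs came from 4 cells and those of *Il12b* from 2, and the part of these cells in the *Ccl5* level was not tested.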

How the data were processed

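The authors deposited UMI counts per gene and barcode for 3 libraries made with the 10x Genomics droplet method, counted with Cell Ranger 6.0.1 according to the header of the matrices on the mouse build mm10, and a table of the barcodes they kept as cDC1s after Seurat, per the labels (4.0.0 in the submitters' processing notes, a number that the study's methods give to R). The counts were used as deposited, and of the table only the barcodes. The members and gene lists were chosen with earlier results of these data known. The sums of UMIs per library and kind of cell were tested with edgeR 4.0.16 (R 4.3.3; TMM scaling, filterByExpr, glmQLFit and glmQLFTest, Benjamini-Hochberg adjustment, adjusted p under 0.05), 3 sums against 3, without a term for the library. Both sums of a library come from the same pool of mice and so are paired by design, and the fit with a library block is given in the closing section; the deviations of same-library sums correlated at 0.0935 to 0.225. The pools are the only replicates and differ in genotype, so the p-values measure how alike these 3 libraries are. Named genes were, per comparison, the 6 largest and 6 smallest log2 fold changes among called genes of 1 sign in all 3 libraries and 50 CPM or more in the higher group, leaving out genes that chose the cells; listed genes at 10 CPM or more, or whose low level bears on the label; and the 5 largest and 5 smallest ratios between libraries at 50 CPM or more. *Retnla* met the rule, and its values are given without a test. Genes of 3 or fewer UMIs in the comparison cells are given as ratios with exact intervals. Shares carry exact (Clopper-Pearson) 95% binomial intervals. For shares of cells with a UMI, cells were thinned to 5000 UMIs and shallower cells left out. Doublets were scored with Scrublet (scanpy 1.11.5), whose automatic threshold called 466, 0 and 0 barcodes; no cell was removed, and an alternative leaves out the top 6% of scores. The fit was tested on simulated data. Alternatives covered scaling, DESeq2 1.42.0, the filter, each library left out, depth, doublets, the mitochondrial limit and the rule itself. A further gene that the comparison rules required at 0, a comparison built on it and 2 more genes are not reported here. Sequences are from RefSeq.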

Additional observations from a re-analysis of the deposited data

How the results depend on the processing

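Of 184 log2 fold changes that passed the test and were refitted under the alternatives, giving 2388 refits, 2365 kept their direction and passed, 23 kept their direction and did not pass, and 0 reversed. Calls lost against C1q cells were *Cxcl1* (0.48), *Pparg* (0.86), *Ccr2* (0.21), *Ccl2* (0.29) and *Ltb* (-0.68) without the WT library, *Ccl2* (0.29) without the sGSN-/- library, *Ly6c2* (-0.49) without the sGSN-/-Clec9a-/- library, *Cxcl1* (1.08) and *Ly6c2* (-1.05) with DESeq2, and *H2-Ob* (-0.36) in thinned cells. Those lost against Flt3 cells were *Mgl2* (0.20) and *Il4ra* (-0.19) without the WT library, *Ly6c2* (-0.40) and *Il4ra* (-0.21) without the sGSN-/- library, *Ly6c2* (-0.43) and *Il4ra* (-0.14) without TMM scaling, *Ccl17* (1.03), *Ly6c2* (-0.62) and *Il4ra* (-0.27) with DESeq2, *Il4ra* (-0.24) without the filter on low counts, *Il4ra* (-0.18) and *Itga6* (-0.62) in thinned cells, and *Apoc2* (0.61) in cells of 10000 to 30000 UMIs. With the library as a replicate block, 4223 genes were called against C1q cells and 5174 against Flt3 cells, and the pairing cost no refitted value its call. Leaving out 1 library at a time gave 2616 to 3494 and 3692 to 4564 called genes, with the lowest count each time without the WT library, which holds the most cells. With cells thinned to 5000 UMIs, 2445 and 3098 genes were called against C1q and Flt3 cells, of fewer genes tested. DESeq2 called 2947 and 3841. With every cell thinned to 5000 UMIs, the Ear2+Fcrls+Lpl+ cells made up 2.34%, 1.39% and 2.53% of the cells outside the cDC1 list that passed the filters and reached that depth in the WT, sGSN-/- and sGSN-/-Clec9a-/- libraries, and with 2 or more UMIs of each rule gene 2.74%, 1.16% and 2.83% of the cells outside the list that passed the filters. For levels, the rule was applied at full depth and the chosen cells were then thinned, so that each cell had the same weight. There *Retnla* stood at 2754, 2927 and 2972 CPM, *Ear2* at 879, 802 and 815 CPM, *Fcrls* at 591, 634 and 588 CPM and *Lpl* at 972, 1178 and 769 CPM. Some differences that did not pass changed sign. With 1 library left out, *Il4ra* against C1q cells ran from -0.058 to 0.24, *Tnf* from -0.052 to 0.30 against C1q cells and from -0.11 to 0.29 against Flt3 cells, and *Cx3cr1* against Flt3 cells from -0.097 to 0.34, where it passed without the WT library. *Il4ra* against C1q cells was -0.058 in cells of 10000 to 30000 UMIs and -0.028 with the rule on part of the UMIs, and *Tnf* was -0.026 and -0.076 against C1q and Flt3 cells with 2 or more UMIs of each rule gene. Against Flt3 cells, *Cx3cr1* was -0.86 in cells of 10000 to 30000 UMIs, where it passed, -0.29 in thinned cells, -0.010 without the highest doublet scores and -0.045 with 2 or more UMIs of each rule gene, and *Ms4a7* was -0.36 and *Tmem119* -0.58 in cells of 10000 to 30000 UMIs. *Ms4a7* passed against Flt3 cells in 4 settings, among them the replicate block (0.82), and *Tmem119* in 3. The causes were not tested. Depth limits the rule, since a cell of few UMIs can miss *Ear2*, *Fcrls* or *Lpl*, and with 1 library per genotype no setting gives a test between genotypes.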
